A study of Mus musculus with 9 samples.

Results

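The chemokine ligands and chemokine receptors of mouse liver were read from bulk RNA-seq of Scd2f/f and Scd2f/f;CC mice. Members were the protein-coding genes of the deposited table whose symbol starts with Ccl, Ccr, Ccrl, Cxcl, Cxcr, Cx3cl, Cx3cr, Xcl, Xcr or Ackr followed by a digit. The rule uses names alone, and it found 40 of 16755 genes, of which 13551 are protein coding. Of the members, 24 are ligands, 11 are signalling receptors and 5 are atypical receptors.

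The 9 male mice, in groups of 3 on a C57BL/6 background per the labels (C57BL/6J per the study's methods), all carried Scd2 alleles with a floxed exon. Scd2f/f mice had no Cre and served both as untreated control livers and, after treatment, as the source of Scd2f/f tumor-adjacent liver (TAL). Scd2f/f;CC mice also carried a Cre transgene under the Col1a1 promoter, so that recombination takes place in Col1a1-expressing cells (activated hepatic stellate cells, aHSC, and portal fibroblasts), and all of them were treated. Treated mice received 10 mg/kg of the hepatic carcinogen diethylnitrosamine (DEN) at 2 weeks of age and, from 6 weeks, 4 months of Western alcohol diet (WAD) per the labels, while the study's methods give a longer feeding time. No age is given for the untreated group on its own, and there were no untreated Scd2f/f;CC mice, so the genotype was compared within treated liver alone. The treated tissue lay beside tumors and, per the study, still held microscopic tumors. Scd2, the deleted gene and a fatty acid desaturase, had a mean of 2.46 in Scd2f/f control liver, 6.47 in TAL of Scd2f/f mice and 1.87 in that of Scd2f/f;CC mice.

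Chemokines are small secreted proteins that draw leukocytes along a gradient by engaging G protein-coupled receptors. Inflammatory chemokines are induced in injured tissue and recruit monocytes, neutrophils and lymphocytes, whereas homeostatic chemokines position cells in healthy organs. Atypical receptors bind chemokines without classical G protein signalling and clear or redistribute them.

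Values below are the authors' mean of each group, in read counts normalized to the upper quartile. Where 3 means stand in a row, they are those of Scd2f/f control liver, then Scd2f/f TAL, then Scd2f/f;CC TAL. The mice were not analysed one by one here, so no difference below was set against the spread between mice, no test was run, and higher or lower describes 3 group means only. In bulk tissue, fewer cells of a type and less RNA per cell cannot be told apart. A ratio of 2-fold in either direction served as the limit for counting genes. Of the 40 members, 16 had a mean over the 3 groups of at least 1, and 24 had a mean under 1, where ratios of all genes scatter more widely. Of those 16, 6 had a group mean under 1 (Cxcl10, Cxcl13, Cxcl14, Ccr2, Cx3cr1 and Ackr2) and reached the minimum through their higher groups, so counts are given first over all 40.

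Most chemokines and receptors had higher means in Scd2f/f TAL than in Scd2f/f control liver, and none was 2-fold higher in Scd2f/f;CC than in Scd2f/f TAL. In TAL of Scd2f/f mice, 27 of the 40 members were at least 2-fold higher than in control liver, where 9.37% of all genes were, and 1 (Ccl21a) was at least 2-fold lower, where 4.69% of all genes were. In Scd2f/f;CC TAL, 13 of the 40 were at least 2-fold lower than in Scd2f/f TAL beside 4.07% of all genes, and 0 were higher beside 1.82%. Against control liver, Scd2f/f;CC TAL had 14 members at least 2-fold higher beside 6.41% of all genes and 2 lower (Ccl9 and Cxcl1) beside 4.64%. The median log2 ratio of the 40 members was 1.52 for Scd2f/f TAL against control liver, -0.65 between the treated genotypes and 0.72 for Scd2f/f;CC TAL against control liver, beside 0.04, 0.00 and 0.05 for all genes. The 3 comparisons share their groups: a high mean in Scd2f/f TAL enters both of the first 2 with opposite sign.

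**Figure D1:**
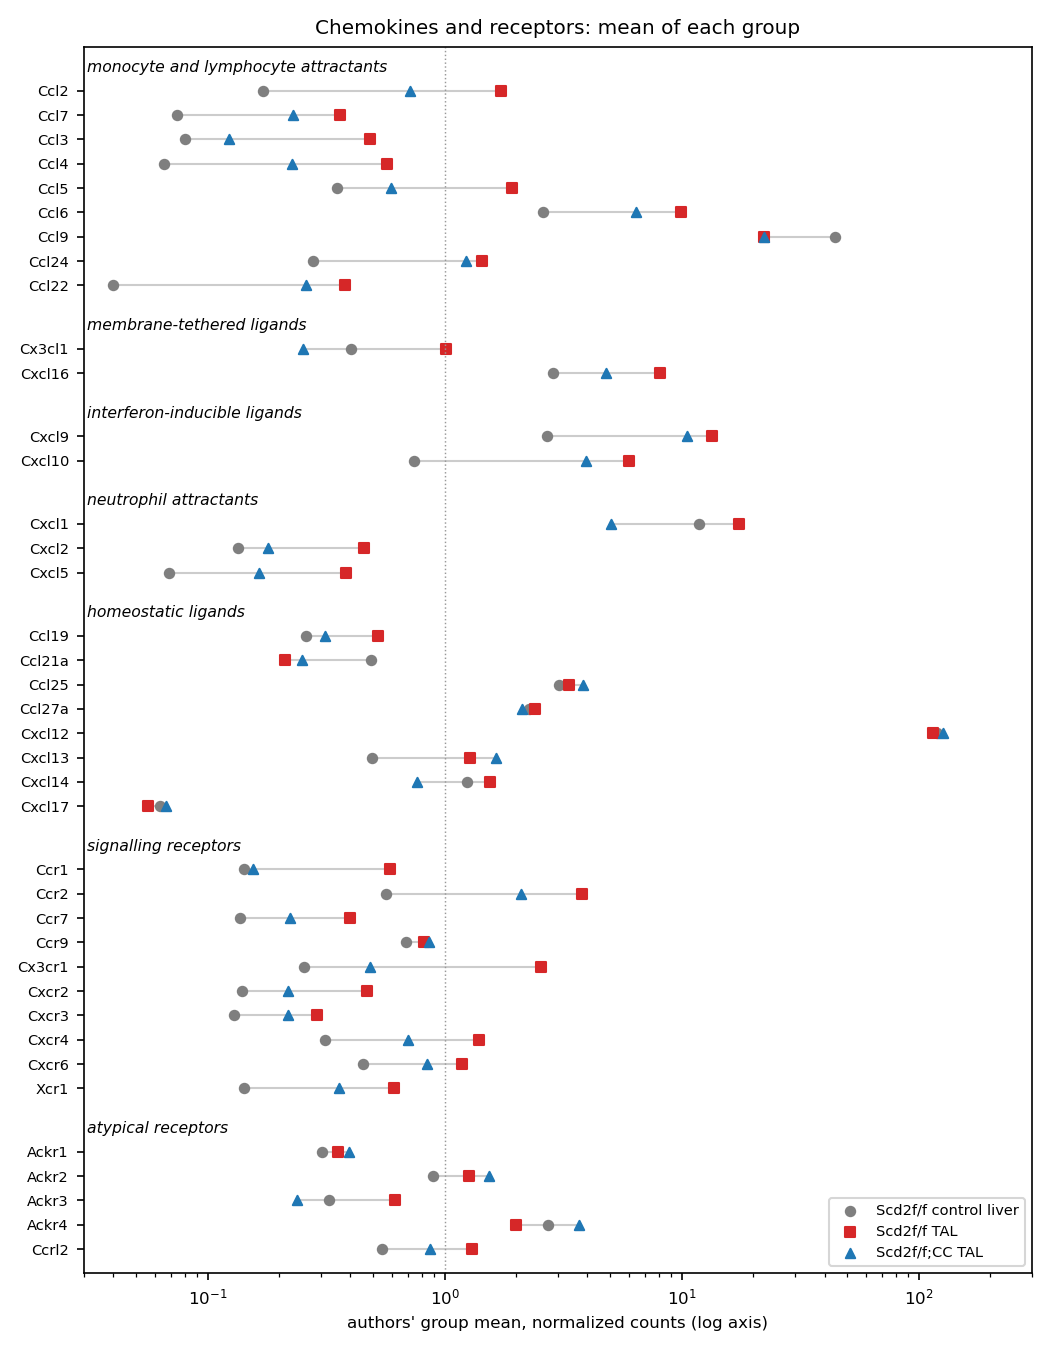
The authors' mean of each of the 3 groups (x axis, normalized counts, log scale) for 39 of the chemokines and receptors, grouped by role; each point is the mean of 3 mice and the dotted line marks a mean of 1. Scd2f/f TAL is the rightmost point for most inflammatory ligands and signalling receptors, whereas Cxcl12 stays between 115 and 126 in all groups and Ccl9 is higher in control liver at 44.5.

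Split by level, 8 of the 16 members with a mean of at least 1 were 2-fold higher in Scd2f/f TAL than in control liver (6.4% of all genes at that level) and 0 were lower (2.89%). Under a mean of 1, 19 of 24 were higher (16.4% of genes at that level) and 1 was lower (8.93%). Between the genotypes, 3 of the 16 were lower in Scd2f/f;CC TAL (Cx3cr1, Cxcl1 and Cxcl14, beside 1.54% of genes) and 0 were higher (0.645%), and 10 of the 24 low members were lower (10.1%) and 0 higher (4.61%). Against control liver, Scd2f/f;CC TAL had 6 of the 16 higher (4.51%) and 2 lower (2.55%), and 8 of the 24 higher (10.9%) and 0 lower (9.58%). Of the 8 higher in Scd2f/f TAL, 4 had every group mean at 1 or more, and of the 3 lower between the genotypes Cxcl1 was the 1 that did. The other members in these counts passed the minimum through a group in which they were high. The shares of all genes beside the counts of 16 are therefore not like for like, and no excess is read from them.

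**Figure D2:**
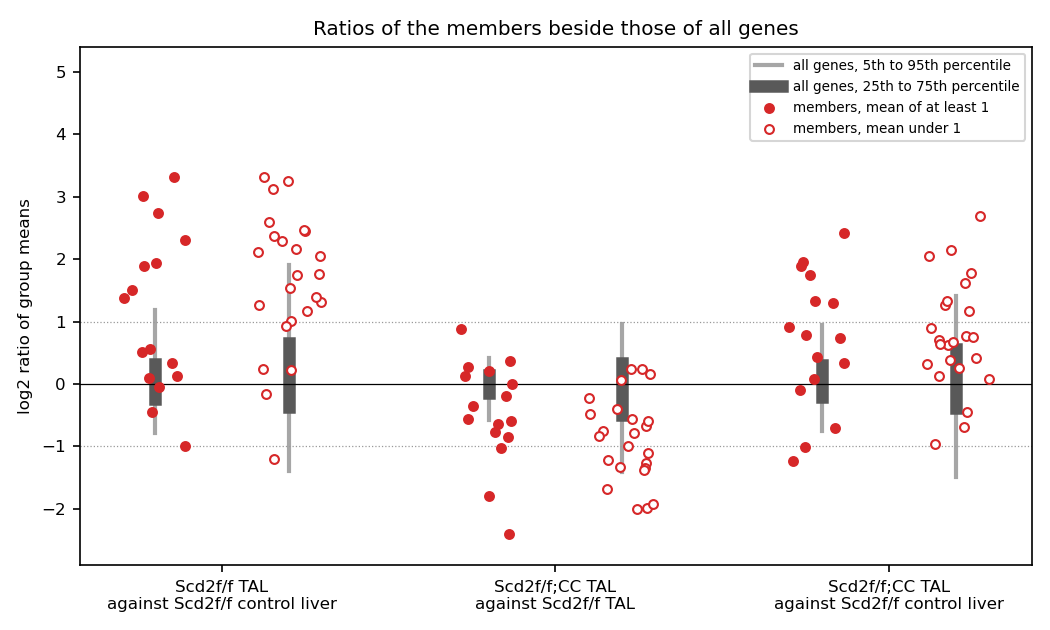
Log2 ratio of group means (y axis) in the 3 comparisons for the members with a mean of at least 1 (filled) and under 1 (open), beside the spread of all genes of the same level (thin bars, 5th to 95th percentile; thick bars, interquartile range). Dotted lines mark 2-fold. In Scd2f/f TAL against control liver, 27 points lie above the upper line, and between the treated genotypes, 13 lie below the lower line and 0 above the upper one.

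Several attractants of monocytes and lymphocytes were among the members with the highest ratios of Scd2f/f TAL to control liver. These attractants are counted together with the eosinophil attractant Ccl24. Of the 9 (Ccl2, Ccl3, Ccl4, Ccl5, Ccl6, Ccl7, Ccl9, Ccl22 and Ccl24), 8 were at least 2-fold higher in Scd2f/f TAL than in control liver. Between the genotypes, 4 (Ccl2, Ccl3, Ccl4 and Ccl5) were at least 2-fold lower in Scd2f/f;CC than in Scd2f/f TAL. Of these 9, 2 had a mean of at least 1. Among all genes with a mean under 1, 16.4% were higher and 10.1% lower in these comparisons. Ccl6, a ligand of Ccr1, had a mean of 2.6 in control liver, 9.97 in TAL of Scd2f/f mice and 6.4 in that of Scd2f/f;CC mice. Scd2f/f TAL was 3.83-fold above control liver and Scd2f/f;CC TAL lay between them. Ccl2, the main ligand of Ccr2 and a recruiter of monocytes, had means of 0.172, 1.72 and 0.715 in the same order, 10.0-fold higher in Scd2f/f TAL than in control liver and 2.41-fold lower in Scd2f/f;CC than in Scd2f/f TAL. Ccl7, another Ccr2 ligand, had means of 0.0745, 0.363 and 0.229.

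Ccl3, Ccl4 and Ccl5 showed the same order of the groups. Ccl5, an attractant of T cells and monocytes, had means of 0.35, 1.92 and 0.596, 5.49-fold higher in Scd2f/f TAL than in control liver and 3.22-fold lower in Scd2f/f;CC TAL. Ccl3 had means of 0.08, 0.485 and 0.123, and was 3.94-fold lower in Scd2f/f;CC than in Scd2f/f TAL. Ccl4 had means of 0.0656, 0.571 and 0.226. For Ccl3 and Ccl5, Scd2f/f;CC TAL was less than 2-fold above control liver, at 1.54-fold and 1.70-fold, and for Ccl4 it was 3.45-fold above. Ccl22, a ligand of Ccr4 that is also bound by Ackr2, had means of 0.04, 0.38 and 0.259, where 0.04 is the lowest mean listed for control liver and is shared by 118 genes, so no fold is given against it. Ccl24, an eosinophil attractant, ranged from 0.278 in control liver to 1.44 in Scd2f/f TAL.

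Ccl9 ran the other way. Its means were 44.5 in control liver, 22.3 in TAL of Scd2f/f mice and 22.2 in that of Scd2f/f;CC mice, a difference of 1.996-fold in Scd2f/f TAL and 2.005-fold in Scd2f/f;CC TAL, so that it falls just short of the limit in one and just past it in the other. The treated groups were nearly equal. Ccl9 and Ccl6 lie side by side on chromosome 11 and both signal through Ccr1, a receptor of monocytes and neutrophils with means of 0.142, 0.589 and 0.156. Ccr1 itself was 4.15-fold higher in Scd2f/f TAL than in control liver and 3.78-fold lower in Scd2f/f;CC TAL.

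Ccr2, the receptor of Ccl2 and Ccl7 that lets inflammatory monocytes leave the bone marrow, was higher in both treated groups. It had means of 0.564 in control liver, 3.78 in TAL of Scd2f/f mice and 2.1 in that of Scd2f/f;CC mice. It was 6.70-fold above control liver in Scd2f/f TAL and 3.72-fold above it in Scd2f/f;CC TAL. It was 1.80-fold lower in Scd2f/f;CC than in Scd2f/f TAL.

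Cx3cr1 and its ligand set the genotypes apart more than Ccr2 did. Cx3cr1, the fractalkine receptor of patrolling monocytes and tissue macrophages, had means of 0.256 in control liver, 2.54 in TAL of Scd2f/f mice and 0.482 in that of Scd2f/f;CC mice. It was 9.92-fold higher in Scd2f/f TAL than in control liver and 5.27-fold lower in Scd2f/f;CC than in Scd2f/f TAL. Its ligand Cx3cl1 (fractalkine), a membrane-tethered chemokine that can be shed, had means of 0.404, 1.01 and 0.252. Cx3cl1 was 2.50-fold higher in Scd2f/f TAL than in control liver and 4.01-fold lower in Scd2f/f;CC TAL, where its mean lay below that of control liver. The second membrane-tethered ligand, Cxcl16, had means of 2.86, 8.13 and 4.77, and its receptor Cxcr6, found on resident T and NK cells, 0.451, 1.18 and 0.844. Neither Cxcl16 nor Cxcr6 was 2-fold lower in Scd2f/f;CC TAL.

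The interferon-inducible ligands Cxcl9 and Cxcl10, which attract activated T and NK cells through Cxcr3, were higher in both treated groups. Cxcl9 had means of 2.71 in control liver, 13.4 in TAL of Scd2f/f mice and 10.5 in that of Scd2f/f;CC mice. It was 4.94-fold above control liver in Scd2f/f TAL and 3.87-fold in Scd2f/f;CC TAL. Cxcl10 had means of 0.739, 5.97 and 3.94, or 8.08-fold and 5.33-fold above control liver. Between the genotypes, Cxcl9 was 1.28-fold and Cxcl10 1.51-fold lower in Scd2f/f;CC TAL. Their receptor Cxcr3 had means of 0.129, 0.289 and 0.218. Irf7, an interferon pathway gene outside the family, had means of 9.34, 20.5 and 17.2.

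The neutrophil attractants, ligands of Cxcr2, were all at least 2-fold lower in Scd2f/f;CC than in Scd2f/f TAL, where 4.07% of all genes were. Cxcl2 and Cxcl5 had a mean under 1, where 10.1% of genes were lower. With a pseudocount of 0.1 their log2 ratios were -0.997 and -0.87, short of the limit. Cxcl1 had means of 11.8 in control liver, 17.5 in TAL of Scd2f/f mice and 5.04 in that of Scd2f/f;CC mice. It was 1.48-fold higher in Scd2f/f TAL than in control liver, 3.47-fold lower in Scd2f/f;CC than in Scd2f/f TAL, and 2.34-fold lower in Scd2f/f;CC TAL than in control liver. Cxcl2 and Cxcl5 ran from 0.0689 to 0.135 in control liver, from 0.383 to 0.459 in TAL of Scd2f/f mice and from 0.165 to 0.18 in that of Scd2f/f;CC mice. Cxcl1 was thus the member of this group with a mean below control liver in Scd2f/f;CC TAL, while Cxcl2 and Cxcl5 lay above it. The receptor Cxcr2 had means of 0.14, 0.471 and 0.218, a 2.16-fold lower mean in Scd2f/f;CC than in Scd2f/f TAL. Of the 6 neutrophil markers listed, 2 (S100a8 and S100a9) were in the table, with a summed mean of 0.565 in control liver, 2.81 in TAL of Scd2f/f mice and 2.29 in that of Scd2f/f;CC mice, and neither was 2-fold lower in Scd2f/f;CC TAL.

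The promoters of Cxcl1, Cxcl2 and Cxcl10 are shown because they hold matches to motifs of inflammatory induction, and Cxcl1 and Cxcl2, whose groups stand in a different order, both hold an NF-kB match. Of 18 members at least 2-fold higher in Scd2f/f TAL than in control liver with a promoter to read, 4 held any of the motifs searched and 14, such as Cxcl9, Ccr2 and Cx3cr1, held none. The share of all promoters with any of the motifs was not counted, so no excess or lack is read from the 4. Each line gives the 250 bases before the RefSeq start on GRCm38.p6, 5′ to 3′ on the gene's strand. Capitals mark the matches to NF-kB, ISRE (the interferon-stimulated response element) and AP-1 motifs. Cxcl1 (chr5:90890995-90891244, plus strand) and Cxcl2 (chr5:90903649-90903898, plus strand) each hold 1 stretch that matches NF-kB on both strands in 2 overlapping frames, from -71 to -61 and from -97 to -87. Cxcl10 (chr5:92348890-92349139, minus strand) holds an ISRE from -213 to -204, NF-kB matches from -159 to -150 and from -103 to -94, and an AP-1 match from -74 to -68.
Cxcl1: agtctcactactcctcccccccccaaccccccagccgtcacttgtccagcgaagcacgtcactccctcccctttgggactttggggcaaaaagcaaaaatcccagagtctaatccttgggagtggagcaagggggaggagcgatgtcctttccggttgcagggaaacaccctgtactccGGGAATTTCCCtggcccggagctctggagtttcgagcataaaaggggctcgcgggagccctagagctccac
Cxcl2: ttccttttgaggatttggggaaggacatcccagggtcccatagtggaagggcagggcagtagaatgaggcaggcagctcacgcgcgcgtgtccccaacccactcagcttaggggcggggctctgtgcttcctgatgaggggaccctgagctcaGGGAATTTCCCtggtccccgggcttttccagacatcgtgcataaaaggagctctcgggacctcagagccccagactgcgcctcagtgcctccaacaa
Cxcl10: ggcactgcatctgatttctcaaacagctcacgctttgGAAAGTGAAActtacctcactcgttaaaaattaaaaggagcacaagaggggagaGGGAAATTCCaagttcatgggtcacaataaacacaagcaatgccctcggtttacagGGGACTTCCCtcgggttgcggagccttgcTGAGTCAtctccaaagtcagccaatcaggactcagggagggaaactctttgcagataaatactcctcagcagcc

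Promoters were matched by symbol for 30 of the 40 members, with 35 starts in all. The NF-kB motif was searched on both strands as GGGRNWYYCC, where R is A or G, W is A or T, Y is C or T and N is any base. It was in 6 of these 35 promoters (17.1%: Ackr2, Ccl9, Ccrl2, Cxcl1, Cxcl2 and Cxcl10), beside 3.90% of all 32851 promoters of the same length. The ISRE, written GAAANNGAAA, was in 3 (8.57%; Ccl19, Cxcl10 and Cxcl14) beside 2.98%. The AP-1 motif TGANTCA was in 3 (8.57%; Ccl9, Ccl27a and Cxcl10) beside 6.75%, and the interferon-gamma activated site TTCNNNGAA in 1 (2.86%; Cxcl14) beside 7.02%. Matches are a description of letters, and members with an NF-kB match include both Cxcl10, higher in TAL, and Ccl9, lower in TAL.

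Homeostatic ligands did not share a direction. Of 8, 2 (Ccl19 and Cxcl13) were at least 2-fold higher and 1 (Ccl21a) at least 2-fold lower in Scd2f/f TAL, with log2 ratios from -1.21 to 1.38 and a median of 0.11. Of all genes, 9.37% were higher and 4.69% lower. Cxcl12, the ligand of Cxcr4 that retains blood stem cells and lymphocytes, had means of 119 in control liver, 115 in TAL of Scd2f/f mice and 126 in that of Scd2f/f;CC mice, within 1.10-fold of each other. Its signalling receptor Cxcr4 had means of 0.312, 1.39 and 0.702, 4.45-fold higher in Scd2f/f TAL than in control liver and 1.98-fold lower in Scd2f/f;CC TAL. Its scavenging receptor Ackr3 had means of 0.325, 0.62 and 0.239, 2.59-fold lower in Scd2f/f;CC than in Scd2f/f TAL. Cxcr4 thus passed 2-fold in Scd2f/f TAL against control liver and Ackr3 between the genotypes, while Cxcl12 passed it in neither. Both receptors had a mean under 1 over the 3 groups, unlike Cxcl12. Among all genes with a mean under 1, 16.4% were higher and 10.1% lower in these comparisons.

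Cxcl13, the B cell attractant, was highest in Scd2f/f;CC TAL, with means of 0.492, 1.28 and 1.65, the last 3.35-fold above control liver. The 5 B cell markers had a summed mean of 1.11 in control liver, 2.04 in TAL of Scd2f/f mice and 2.23 in that of Scd2f/f;CC mice, and their part in the result was not tested. Cxcl14, which is expressed in epithelia and fibroblasts, had means of 1.24, 1.56 and 0.763, 2.04-fold lower in Scd2f/f;CC than in Scd2f/f TAL, a log2 ratio of -1.03 that became -0.94 with a pseudocount of 0.1, short of the limit. Ccl25, the ligand of the gut-homing receptor Ccr9, had means of 3.05, 3.34 and 3.85, and Ccr9 itself 0.69, 0.818 and 0.859. Ccl27a, a skin chemokine, had means of 2.26, 2.41 and 2.12. None of Ccl25, Ccr9 and Ccl27a was 2-fold apart in any comparison, and Cxcl17 was near the lowest listed means in each group, between 0.0562 and 0.0667.

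Ccl19 and Ccl21a share the receptor Ccr7, which brings dendritic cells and T cells into lymphoid tissue, and are scavenged by Ackr4. Ccl19 had means of 0.261, 0.524 and 0.312, Ccl21a 0.49, 0.212 and 0.251, and Ackr4 2.72, 1.99 and 3.68. The annotation holds further copies named Ccl21b, Ccl21c and Ccl27b and pseudogenes of Ccl19, so reads of Ccl19, Ccl21a and Ccl27a could have been split between near-identical copies and their values are uncertain. Ackr4 was 1.85-fold higher in Scd2f/f;CC than in Scd2f/f TAL. Its exons overlap those of Acad11 on the opposite strand, whose means were 150, 214 and 235. The kit does not mark strand, so reads from the shared bases cannot be told apart, and their share was not measured. Other members overlap a gene on the opposite strand too, with the same limit: Cxcl10 overlaps Art3 (means of 0.524, 0.794 and 0.751), Cxcl16 overlaps Zmynd15 (0.849, 1.26 and 1.0), Ccl25 overlaps Elavl1 (21.9, 23.0 and 22.9), Ccl27a overlaps Il11ra1 (11.9, 6.84 and 7.71), Ccr9 overlaps Slc6a20a, and Cx3cr1 overlaps Gm33858. Ackr2, the scavenger of inflammatory CC chemokines, had means of 0.893, 1.27 and 1.54.

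The remaining receptors had a mean under 1 over the 3 groups. Ccr7 and Xcr1, a marker receptor of cross-presenting dendritic cells, had control means of 0.137 to 0.142, Scd2f/f TAL means of 0.397 to 0.614 and Scd2f/f;CC TAL means of 0.223 to 0.357. Ackr1, which binds many inflammatory chemokines on venules, had means of 0.304, 0.354 and 0.395, and its exons overlap Cadm3 on the same strand, at 2.13, 3.15 and 3.39. Ccrl2, which presents chemerin, had means of 0.543, 1.31 and 0.865. In all, 10 of 11 signalling receptors were at least 2-fold higher in Scd2f/f TAL than in control liver, with Ccr9 the exception. In Scd2f/f;CC TAL 4 were (Ccr2, Cxcr4 and Xcr1 among them), and 3 (Ccr1, Cx3cr1 and Cxcr2) were at least 2-fold lower than in Scd2f/f TAL. Of these 11 receptors, 3 had a mean of at least 1. Among all genes with a mean under 1, the shares in these 3 comparisons were 16.4%, 10.9% and 10.1%. Of the 5 atypical receptors, Ccrl2 was 2-fold higher in Scd2f/f TAL, and Ackr3 was 2-fold lower with the Scd2 deletion.

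Levels of different genes were compared per kilobase of exon. On that scale Cxcl12 stood highest in Scd2f/f TAL at 14.1 per kb, followed by Cxcl1 at 9.33, Ccl9 at 7.32, Ccl6 at 5.55 and Cxcl9 at 4.44. In control liver, Ccl9 and Cxcl12 both stood at 14.6 per kb and Cxcl1 at 6.29. In Scd2f/f;CC TAL, Cxcl1 was at 2.69 per kb, below Ccl6 at 3.57 and Cxcl9 at 3.48. Per kilobase, Cx3cr1 and Ccr2 were lower than these ligands: Cx3cr1 was at 0.564 and Ccr2 at 0.559 in Scd2f/f TAL.

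Many members neighbour each other in the genome. In GRCm38, 7 lie within 1.63 Mb of chromosome 11 (Ccl2, Ccl7, Ccl5, Ccl9, Ccl6, Ccl3 and Ccl4; chr11:82035571-83664684), 5 within 1.59 Mb of chromosome 5 (Cxcl5, Cxcl1, Cxcl2, Cxcl9 and Cxcl10; chr5:90759360-92348890) and 8 within 4.25 Mb of chromosome 9 (Cx3cr1, Ackr2, Ccr9, Cxcr6, Xcr1, Ccr1 and Ccr2 among them). On chromosome 11, 6 of 7 members were 2-fold higher in Scd2f/f TAL than in control liver, with Ccl9 the exception, beside 6 of 18 other protein-coding genes in the run, with no minimum mean for either. On chromosome 5, 4 of 5 were, beside 3 of 13 others, and on chromosome 9, 6 of 8 were, beside 1 of 40 others. At a minimum mean of 1, members gave 1 of 2, 2 of 3 and 3 of 4 on chromosomes 11, 5 and 9, and others 4 of 12, 0 of 8 and 0 of 32. Between the genotypes, 4 of the 7, 3 of the 5 and 2 of the 8 were 2-fold lower in Scd2f/f;CC TAL, beside 1 of 18, 3 of 13 and 1 of 40 others. At a minimum mean of 1 these were 0 of 2, 1 of 3 and 1 of 4 members, beside 0 of the others in each run. The run on chromosome 4 (Ccl27a, Ccl19 and Ccl21a) did not follow this pattern. In Scd2f/f TAL against control liver, 1 of its 3 members was 2-fold higher and 1 lower, beside 1 of 4 others each way. For Scd2f/f;CC against Scd2f/f TAL, 0 of the 3 were 2-fold lower, beside 3 of 4 others. These counts have no minimum mean, because 0 of the others there had a mean of at least 1. Neighbours within a run also differed, as Ccl9 and Ccl6 or Cxcl1 and Cxcl9 did. Near copies in 1 run are not independent, and no test was made.

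**Figure D3:**
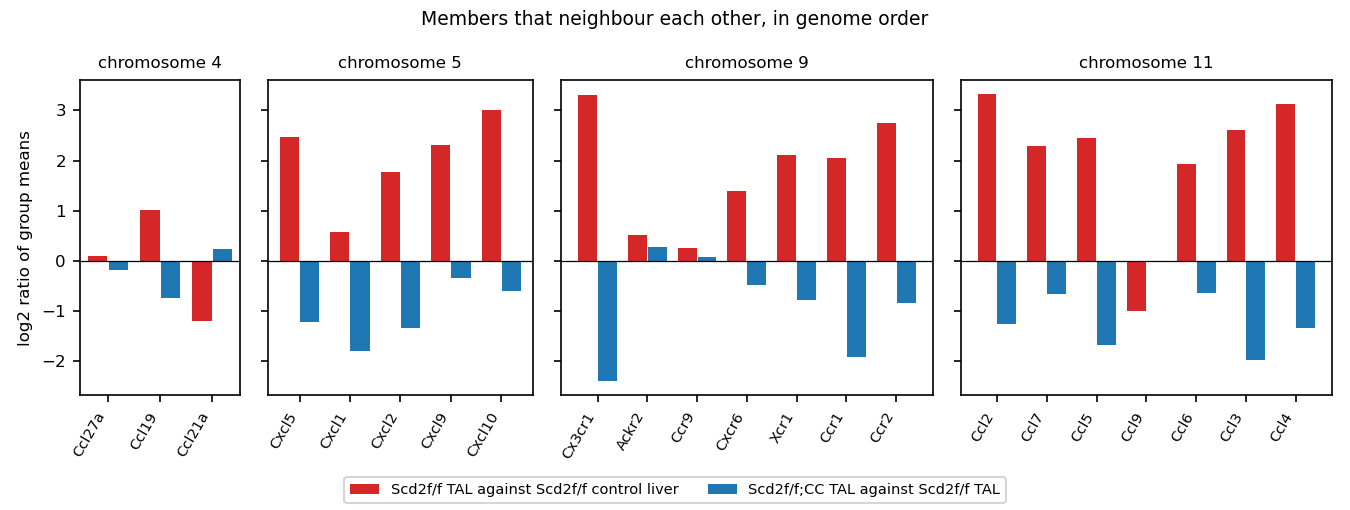
Log2 ratio of group means (y axis) for members in genome order in 4 runs (1 member is not shown), with Scd2f/f TAL against control liver in red and Scd2f/f;CC against Scd2f/f TAL in blue; no error bars are drawn because the table used holds group means. Red bars reach above 1 for 6 of 7 members of the chromosome 11 run, and Ccl9 points down, with a blue bar too small to see.

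Marker genes of immune cells were also higher in Scd2f/f TAL. All 8 macrophage and Kupffer cell markers were at least 2-fold higher than in control liver, with a summed mean of 82.0 in control liver, 310 in TAL of Scd2f/f mice and 278 in that of Scd2f/f;CC mice, and 0 of 8 were 2-fold lower in Scd2f/f;CC than in Scd2f/f TAL. The 6 monocyte markers summed to 4.07, 12.3 and 9.50, and again 6 of 6 were higher and 0 lower. The 7 T cell markers summed to 1.51, 5.32 and 2.93, with 6 higher in Scd2f/f TAL than in control liver and 3 lower in Scd2f/f;CC TAL. Dendritic cell markers (5 of 6 in the table) summed to 4.31, 9.47 and 6.14, with 3 higher in Scd2f/f TAL and 1 lower in Scd2f/f;CC TAL, Itgax, which had means of 0.235, 3.66 and 1.12. NK cell markers (4 of 5) summed to 0.632, 1.65 and 1.08, with 3 higher and 1 lower, Eomes, at 0.063, 0.235 and 0.0593. Between the genotypes, markers at least 2-fold lower were thus 0 on the macrophage and monocyte lists and 3 on the T cell list. The dendritic and NK cell lists had 1 each. All T cell and NK cell markers in the table had a mean under 1, and all 8 macrophage markers a mean of at least 1. Under 1, 16.4% of all genes were 2-fold higher in Scd2f/f TAL and 10.1% lower in Scd2f/f;CC TAL. At 1 or more, these shares were 6.4% and 1.54%. The part of any of these cells in the members' differences was not tested.

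Markers of cells other than leukocytes also differed between groups. The 9 stellate cell and portal fibroblast markers summed to 58.8 in control liver, 136 in TAL of Scd2f/f mice and 57.4 in that of Scd2f/f;CC mice, with 4 at least 2-fold higher in Scd2f/f TAL and 6 at least 2-fold lower in Scd2f/f;CC TAL. The 5 cholangiocyte markers summed to 58.7, 53.1 and 19.1, with 0 at least 2-fold higher in Scd2f/f TAL and 4 at least 2-fold lower in Scd2f/f;CC TAL. Of all genes, 9.37% were 2-fold higher in Scd2f/f TAL and 4.07% lower in Scd2f/f;CC TAL. Of the 40 members, 7 had lower means in Scd2f/f;CC TAL than in control liver and 33 higher, beside 45.0% and 54.5% of all genes. The 7 endothelial markers summed to 130, 168 and 171, with 2 at least 2-fold higher in Scd2f/f TAL. The 6 hepatocyte markers summed to 32361, 29349 and 33023, with 0 at least 2-fold higher. No gene of either list was 2-fold lower in Scd2f/f;CC TAL. The part of any of these cells in the chemokine result was not tested.

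**Figure D4:**
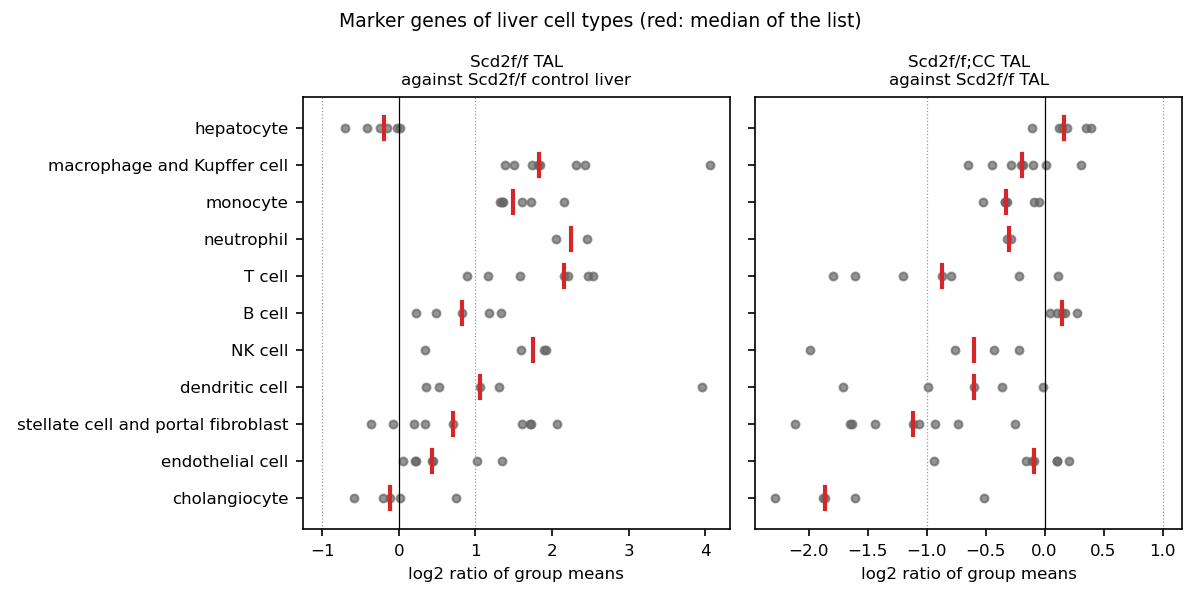
Log2 ratio of group means (x axis) of each marker gene of 11 liver cell types, for Scd2f/f TAL against control liver and for Scd2f/f;CC against Scd2f/f TAL; each grey point is a gene, red bars are list medians and dotted lines mark 2-fold. All 8 macrophage points lie right of the dotted line at 2-fold on the left panel and 0 lie left of it on the right panel, while 4 of 5 cholangiocyte points do.

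Other genes of the chemokine pathway were counted in the same way for genes whose mean was 1 or more. At that level, 6.4% of all genes were 2-fold higher in Scd2f/f TAL than in control liver and 1.54% lower in Scd2f/f;CC TAL. Some listed genes, such as Was, Gng2, Plcb2 and Relb, had a control mean under 1. They passed the minimum through the treated groups, so these shares are not like for like. Of 15 genes of leukocyte migration machinery (integrins, kinases and Rac regulators), 12 were at least 2-fold higher in Scd2f/f TAL than in control liver and 0 lower in Scd2f/f;CC TAL. For G protein signalling and arrest, 8 of 18 were higher and 1 lower. The list of inducers of chemokines, which also holds the inhibitors Nfkbia and Tnfaip3, gave 9 of 14 and 1. Processing and presentation gave 2 of 9 and 2, and control of chemokine transcripts and responses 2 of 4 and 1. Chemokines and receptors under other names gave 2 of 5 and 1. Tnf, a cytokine that induces many members, had means of 0.132, 0.579 and 0.28 and Il1b of 0.92, 2.45 and 1.9. Nfkbia, the NF-kB inhibitor that NF-kB itself induces, had means of 14.8, 23.8 and 19.9. Tnfaip3, another inhibitor that NF-kB induces, was the 1 gene of the inducer list counted lower. It had means of 1.78, 7.7 and 2.92 and is named after its values were seen.

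Of the related ligands and receptors, Rarres2 (chemerin) had means of 145, 165 and 171 and its receptor Cmklr1, of macrophages and dendritic cells, 1.19, 3.95 and 2.58. Cmklr1 was thus higher in Scd2f/f TAL with little difference in its ligand. Gpr182, a chemokine scavenger of sinusoidal endothelium, had means of 9.5, 10.8 and 9.83. The platelet chemokines Pf4 and Ppbp had means of 0.313, 0.36 and 0.241 and of 0.353, 0.277 and 0.383. Among proteases, Adam17, a sheddase of Cx3cl1, had means of 13.9, 18.6 and 15.8, and Dpp4, which trims chemokines such as Cxcl10 and Cxcl12, 73.6, 82.9 and 89. The 3 matrix metalloproteinases of the processing list, named after their values were seen, differed more: Mmp12, a macrophage elastase, had means of 0.157, 14.9 and 3.52, Mmp2 of 1.19, 3.06 and 1.07, and Mmp9 of 0.157, 0.726 and 0.756.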

How the data were processed

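Polyadenylated RNA of 9 mouse livers, 3 per group, was sequenced by the authors with the TruSeq RNA v2 kit, which does not mark strand. Per the submitters' processing notes and the study's methods, the authors used Partek 6 and STAR 2.6.1 with mm10, assigned reads to genes of Gencode M3 by expectation maximization in Partek, normalized counts to the upper quartile and ran Partek Gene Specific Analysis. The deposited table gives, as its signal, the authors' least-squares mean of each group in normalized counts to 3 significant digits. Its columns of p-values, FDR, ratios and fold changes hold the authors' own comparisons and were not used. No values of single mice were analysed here and the depth is unknown, so no test, error or interval is given, and the 9 mice enter only through the 3 means. One group's mean stands in 2 identical columns and was used once. Labels describe the samples as liver, and the study calls the treated tissue both tumor-adjacent and non-tumor liver. The treatment protocol in the labels is the same for all samples, and groups were taken from the titles.

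Members were chosen by symbol, and those with a mean over the 3 groups of at least 1 were named with all 3 means. One member and 1 pathway gene stay in the counts but are not reported here. Members and lists were chosen with earlier results of these data known. Ratios of group means were computed in Python 3.11.15 with NumPy 2.4.6 and pandas 2.3.3, and a ratio carries up to 1.01% of rounding error. The ratio script was tested on simulated data. Coordinates are those of the deposited table, and 39 of 40 members lay within 1 base of GENCODE M21 on GRCm38, the other within 4. Exon lengths and overlaps are from M21, where exons of 8 members overlap another gene (Cxcl16, Cxcl10, Ccl25, Ccl27a, Ccr9, Cx3cr1, Ackr1 and Ackr4). Runs of members ended at gaps over 2 Mb. The alternatives were pseudocounts of 0.1 and 1, centring, no filter or a minimum mean of 10, a 1.5-fold limit and protein-coding genes alone.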

Additional observations from a re-analysis of the deposited data

How the results depend on the processing

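Counts and medians here are over the 16 members with a mean of at least 1 unless another filter is named, and the cause of a change was not tested. For Scd2f/f TAL against control liver, the count of members 2-fold higher was 8, 27 without a filter and 0 of 3 at a minimum mean of 10, and that of members lower was 0, or 1 without a filter, after centring and at 1.5-fold. Its median log2 ratio of 0.97 became 1.52 without a filter, -0.049 at a minimum mean of 10 (3 members), 0.89 and 0.57 with pseudocounts of 0.1 and 1, and 0.95 after centring. For Scd2f/f;CC against Scd2f/f TAL, the count higher was 0, or 1 at 1.5-fold, and the count lower was 3, 13 without a filter, 1 at a minimum mean of 10, 2 with either pseudocount and 7 at 1.5-fold. Its median of -0.46 became -0.65 without a filter, -0.0065 at a minimum mean of 10 and -0.41 with a pseudocount of 1. For Scd2f/f;CC TAL against control liver, the count higher was 6, 14 without a filter, 0 at a minimum mean of 10, 4 with a pseudocount of 1 and 9 at 1.5-fold, and the count lower was 2, or 1 with a pseudocount of 1. Its median of 0.76 became 0.72 without a filter, -1.003 at a minimum mean of 10, 0.71 and 0.38 with pseudocounts of 0.1 and 1, and 0.72 after centring. A pseudocount of 1 left 9 of all 40 members at least 2-fold higher in Scd2f/f TAL and 2 (Cxcl1 and Cx3cr1) at least 2-fold lower in Scd2f/f;CC TAL, since most members have means under 1. A background of genes with a mean of 1 to 10, chosen after seeing the data, put 9.83% of genes 2-fold higher in Scd2f/f TAL in place of 6.40%, and 2.37% lower in Scd2f/f;CC TAL in place of 1.54%.

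No paired analysis was possible because the table used holds group means and no value of a single mouse. For the same reason leaving out each replicate was not run. Low means limit what the ratios show: 24 of 40 members have a mean under 1, and Ccl22 in control liver is at the lowest mean listed.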

Other observations

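Cxcl11, the third ligand of Cxcr3, is annotated as a polymorphic pseudogene in the table and was left out of the members by the rule. Its means were 0.674 in Scd2f/f control liver, 0.541 in TAL of Scd2f/f mice and 0.972 in that of Scd2f/f;CC mice, an order unlike that of Cxcl9 and Cxcl10.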
